A study of Mus musculus with 12 samples.

Results

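Ribosome biogenesis factors are the nucleolar proteins that process ribosomal RNA and assemble it into subunits, and they were followed here over 12 Affymetrix MOE430 2.0 arrays of mouse bone marrow B cells. A list of 50 such genes was set by their known roles, with earlier results of these data already known. Probe sets were matched to it by gene symbol. Of the 50 genes, 48 had a probe set of their own, and all 48 passed the filter on low values, against 10287 of the 18194 genes on the array. They were sorted by role into 8 factors of small nucleolar RNP particles, 17 of the small subunit, 19 of the large subunit and 4 general nucleolar proteins. Mrto4 shares its probe set with pseudogene symbols and Npm3 was not matched, so neither is analysed here.

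The arrays fall into 4 groups of 3: wild type, Eµ-TTP-1 transgenic (called TTP here), Eμ-Myc transgenic (Myc), and carriers of both transgenes (Myc TTP). The mice were littermates aged 4 to 6 weeks on a background 94% C57BL/6, and the labels describe both Myc groups as precancerous. The Eµ enhancer of the immunoglobulin heavy chain locus drives the transgenes in the B lineage, Myc encodes a growth-promoting transcription factor, and TTP, the product of Zfp36, promotes decay of mRNAs with AU-rich elements. Cells were taken from marrow with magnetic beads against B220, a surface protein of B cells, and the labels call the arrays of a group biological replicates without saying whether each came from 1 mouse. The p-values therefore measure the spread between these samples.

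Ribosome assembly begins in the nucleolus, where RNA polymerase I makes a long precursor RNA. Small nucleolar RNPs modify that precursor, one set of factors builds the small subunit processome on its leading part, and another set cuts and folds the part that becomes the large subunit. Myc is known as a direct activator of many of these genes and binds DNA at the E-box, of which CACGTG is the canonical form.

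The promoters of the members are shown first because the comparison of groups with and without the Myc transgene (called Myc-transgenic and Myc-negative here) is the one on which their levels turned. RefSeq windows of assembly GRCm38.p6, from 250 bases before to 50 bases past the annotated start, were held for 42 of the 48 members. The motif CACGTG, a palindrome and so the same on both strands, was found in 9 of these 42 members (21.4%). Counted by gene in the same way, it was found in 12.3% of the 8440 tested genes and 8.09% of all 27025 genes with a window. Counted by window, it was found in 7.15% of all 32851 windows of the same length. In 3 members it lay before the start. The stretches below run on the strand of the gene, with the motif in capitals, and show Imp4 (chr1:34439638-34439783, plus strand), Nop2 (chr6:125131753-125131882, plus strand) and Utp18 (chr11:93885767-93885856, minus strand), in which the motif begins 121, 60 and 20 bases before the start.
Imp4: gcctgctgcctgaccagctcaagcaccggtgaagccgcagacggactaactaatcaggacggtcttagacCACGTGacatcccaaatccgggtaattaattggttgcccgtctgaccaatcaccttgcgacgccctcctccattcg
Nop2: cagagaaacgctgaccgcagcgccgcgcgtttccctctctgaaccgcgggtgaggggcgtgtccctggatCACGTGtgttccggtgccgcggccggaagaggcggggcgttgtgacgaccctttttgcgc
Utp18: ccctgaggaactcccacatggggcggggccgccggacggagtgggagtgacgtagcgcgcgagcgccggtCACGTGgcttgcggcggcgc

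In the other 6 members the motif lay within the first bases of the gene, and 30 bases around it are given, again with the motif in capitals. They belong to Wdr43 (chr17:71616220-71616249, plus strand), Utp20 (chr10:88826765-88826794, minus strand), Mybbp1a (chr11:72441347-72441376, plus strand), Tsr1 (chr11:74898092-74898121, plus strand), Pes1 (chr11:3963965-3963994, plus strand) and Ltv1 (chr10:13193092-13193121, minus strand).
Wdr43: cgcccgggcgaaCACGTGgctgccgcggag
Utp20: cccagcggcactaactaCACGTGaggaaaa
Mybbp1a: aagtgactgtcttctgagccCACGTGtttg
Tsr1: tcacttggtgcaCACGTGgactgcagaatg
Pes1: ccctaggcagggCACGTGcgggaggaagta
Ltv1: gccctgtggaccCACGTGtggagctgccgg
These are matches of letters and not measured binding sites. The 9 members with the motif had a median log2 difference of 1.13 (0.55 to 1.41) between Myc-transgenic and Myc-negative groups, and the 33 without it 0.95 (0.36 to 1.57), so the ranges overlapped over nearly their whole length.

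Several arrays went against their labels or stood apart, and they touch every comparison with wild type or TTP. In wild type the Myc probe set read log2 9.65, 9.68 and, for the array labelled wild type 3, 12.65. In TTP it read 10.05, 10.39 and, for the one labelled TTP 3, 13.47. It read 12.99 to 13.92 on the Myc arrays and 11.82 to 13.37 on the Myc TTP arrays, so both of these arrays lay within the range of the Myc-transgenic ones. Xist, the RNA of the inactive X chromosome, and a Y-linked gene were both above the floor of log2 4 on the 4 arrays numbered 3. Zfp36 read log2 9.80 to 10.70 on wild-type arrays and 9.78 to 9.89 on TTP arrays, so this probe set does not show the TTP transgene. On the Myc TTP arrays it read 7.47, 8.62 and 9.18, all below the lowest Myc array (9.28). Its difference in Myc TTP over Myc was -1.12 ± 0.39 (SE, adjusted p = 0.197 by limma), which did not pass. The reason for these low readings was not tested. The 11 B-lineage markers measured were above the floor, and Cd79b, a chain of the B-cell receptor, read 14.27 to 15.30. Their mean was lower with the Myc transgene, at log2 12.83 to 13.48 on wild-type, 12.46 to 13.41 on TTP, 11.62 to 12.67 on Myc and 12.25 to 12.38 on Myc TTP arrays. Vpreb1, a chain of the pre-B-cell receptor, had a mean of 12.79 in wild type, 12.85 in TTP, 9.47 in Myc and 11.27 in Myc TTP. The Myc mean came from readings of 8.37 and 8.30 on Myc 1 and 2 and 11.73 on Myc 3, which was above the Myc TTP arrays (10.84 to 11.64). The part of these markers in the results was not tested. Markers of other cells were present too: the mean of 15 granulocyte markers was log2 11.58 to 12.53 on wild-type, 10.99 to 12.93 on TTP, 6.21 to 11.33 on Myc and 9.91 to 11.03 on Myc TTP arrays. In bulk samples, fewer cells of a type and less RNA per cell cannot be told apart.

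Ribosome biogenesis factors were higher with the Myc transgene. Averaged over both TTP backgrounds, 45 of the 48 members rose past the threshold and 0 fell, by limma with a Benjamini-Hochberg adjusted p under 0.05 over all tested genes. The background was 18.7% of tested genes called higher in this comparison and 24.6% called lower. The median member difference was 0.97 on the log2 scale, a 1.95-fold difference, against -0.06 for all tested genes, and the members ran from 0.29 to 1.57. All 48 were higher by their mean. The 3 that did not pass were Utp15 (0.41 ± 0.16, SE, adjusted p = 0.0566), Npm1 (0.29 ± 0.13, adjusted p = 0.0943) and Gnl2 (0.39 ± 0.19, adjusted p = 0.110), by the same limma fit. Of all calls in this comparison 43.2% were upward, and 58.0% after quantile normalization. At an unadjusted p under 0.05 there were 46 members, all higher, where 53.9% of tested genes passed and 23.4% passed and were higher. By mean, 45.5% of tested genes were higher. Nop10 was the 1 member for which all 6 Myc-transgenic arrays lay above all 6 others, against 0.758% of tested genes, and no member lay wholly below, against 0.865%. With wild type 3 and TTP 3 left out, 48 of 48 members rose, with a median of 1.29 and a range of 0.47 to 2.23, where the background was 24.1% called higher. Those 2 arrays were picked with their Myc signal and member levels known, so the larger difference is not independent support.

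**Figure D1:**
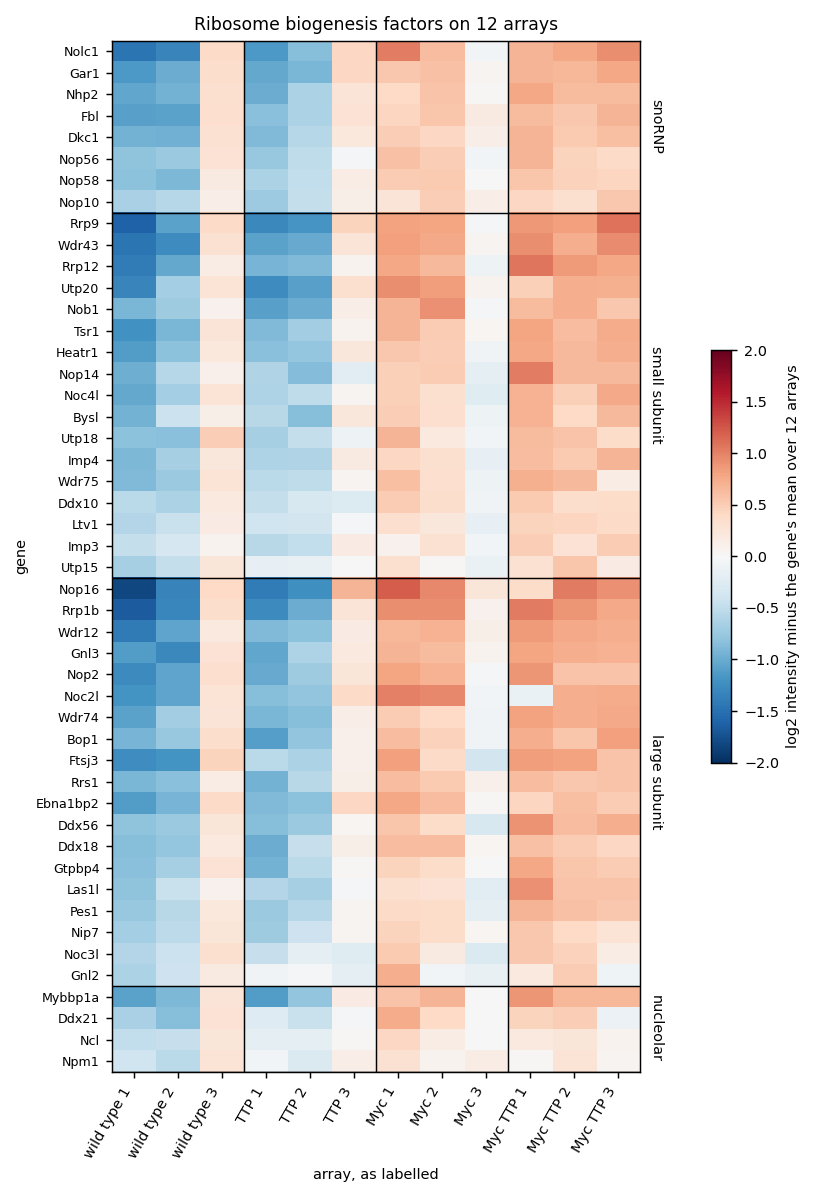
Log2 intensity of the 48 members (rows, by role and by size of the Myc difference) on the 12 arrays (columns, as labelled), each minus the gene's mean over all arrays, with red above and blue below that mean. Wild type 1 and 2 and TTP 1 and 2 are blue for nearly every gene, wild type 3, TTP 3 and Myc 3 are pale, and the other Myc-transgenic arrays are red.

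Member levels differed between arrays of the same label. Relative to each member's mean over 12 arrays, the median member lay at -0.94 and -0.77 on wild type 1 and 2 and at -0.84 and -0.63 on TTP 1 and 2. It lay at 0.56 and 0.49 on Myc 1 and 2 and at 0.68, 0.57 and 0.59 on the Myc TTP arrays. Between them fell wild type 3 (0.27), TTP 3 (0.13) and Myc 3 (-0.03). For 46 of 48 members the lowest of the 6 Myc-transgenic arrays was above the highest of wild type 1 and 2 and TTP 1 and 2, which held for 15.1% of all tested genes. That count leaves out wild type 3 and TTP 3, which were picked with their member levels known, so the count is not independent support. Wild type 3 was above Myc 3 for 47 of 48 members, where 85.4% of all tested genes were, and TTP 3 for 41, where 44.2% were. Neither reached above the highest of the 6 Myc-transgenic arrays for any member.

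**Figure D2:**
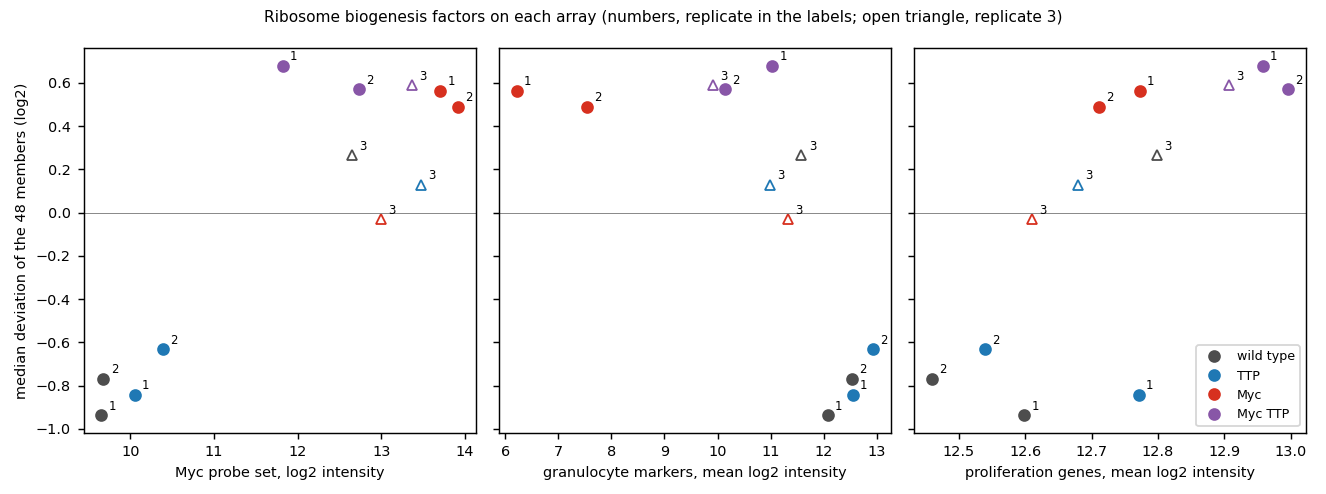
Median deviation of the 48 members from their 12-array means (vertical axis, log2) on each array, against the log2 intensity of the Myc probe set, the mean log2 intensity of 15 granulocyte markers and that of 17 proliferation genes. The 4 arrays with Myc below log2 11 lie at -0.63 or lower, and the 3 arrays wild type 3, TTP 3 and Myc 3, with granulocyte means of 10.99 to 11.58, lie between them and the rest.

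Granulocyte markers moved against the members, and their part in the result was not tested. Their mean was 12.08 to 12.93 on the 4 arrays with low members and 6.21 and 7.55 on Myc 1 and 2. The median member lay at 0.68 on Myc TTP 1, with a granulocyte mean of 11.03, and at 0.56 on Myc 1, with a mean of 6.21. On the same scale the median of all tested genes lay at 0.23 on Myc TTP 1 and at -0.13 on Myc 1. Among the other markers, the summed intensity of 10 erythroid genes was 6371 to 32836 on wild-type and TTP arrays and 359 to 9384 on Myc and Myc TTP arrays, and Hba-a1 stayed below the floor. The summed intensity of 10 monocyte and macrophage genes was 17853 to 52957 against 3595 to 20077, with Cd14 below the floor. Of 11 T- and NK-cell genes Cd3e, Cd3g and Cd4 were below the floor, and the sums were 741 to 2801 against 192 to 922. The sums of 6 plasmacytoid dendritic cell genes were 9069 to 21976 against 3087 to 9109. Proliferation genes spread far less over the arrays than the members: the mean of 17 such genes was log2 12.46 to 13.00 over all 12 arrays. Their median difference with Myc over both backgrounds was 0.18, against -0.06 for all tested genes. Of the 17 genes 5 were called higher and 1 lower, where 18.7% and 24.6% of tested genes were.

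Within groups the median member was tight except on wild type 3, TTP 3 and Myc 3. The median gap between replicates 1 and 2 was 0.17 log2 units in wild type, 0.17 in TTP, 0.12 in Myc and 0.15 in Myc TTP. Single members differed more, with a largest gap of 0.65 in wild type, 0.54 in TTP, 0.78 in Myc and 0.86 in Myc TTP. The median range over all 3 arrays was 1.21 in wild type, 0.98 in TTP, 0.62 in Myc and 0.25 in Myc TTP. The Myc TTP group was thus the most even of the 4 for these genes by this measure.

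The factors of small nucleolar RNPs all rose: 8 of 8 passed in the Myc comparison over both backgrounds, with differences of 0.72 to 1.33. Fbl, the methyltransferase of box C/D particles that modifies ribosomal RNA, read log2 12.12, 12.14 and 13.53 in wild type, 12.38, 12.57 and 13.49 in TTP, 13.63, 13.76 and 13.39 in Myc, and 13.84, 13.74 and 13.89 in Myc TTP. Wild type 3 and TTP 3 were the high ones among the arrays without the Myc transgene, and both exceeded Myc 3, the lowest Myc array. Fbl rose by 1.01 ± 0.26 (SE, adjusted p = 0.0171), a 2.01-fold difference. Its partners in the same particle, the scaffold proteins Nop56 and Nop58, rose by 0.85 ± 0.20 and 0.83 ± 0.20 (adjusted p = 0.0169 for each).

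In the box H/ACA particles, which convert uridine to pseudouridine, the synthase Dkc1 read log2 12.66, 12.65 and 13.90 in wild type, 12.72, 13.03 and 13.81 in TTP, 14.09, 14.01 and 13.74 in Myc, and 14.29, 14.13 and 14.21 in Myc TTP. The Myc TTP arrays lay above all TTP arrays, while wild type and Myc overlapped through wild type 3 and Myc 3. Dkc1 rose by 0.95 ± 0.24 (adjusted p = 0.0169). The core proteins Gar1 and Nop10 rose by 1.10 ± 0.30 (adjusted p = 0.0189) and 0.72 ± 0.17 (adjusted p = 0.0169). Nolc1, a phosphoprotein that escorts both kinds of particle, had the largest difference of the class. It read 9.96, 10.10 and 11.81 in wild type, 10.27, 10.57 and 11.84 in TTP, 12.45, 12.04 and 11.37 in Myc, and 12.10, 12.20 and 12.35 in Myc TTP. Wild type and Myc overlapped, while TTP and Myc TTP did not. The rise was 1.33 ± 0.36 (adjusted p = 0.0184), or 2.51-fold. The remaining H/ACA protein, Nhp2, rose by 1.01 (adjusted p = 0.0171).

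**Figure D3:**
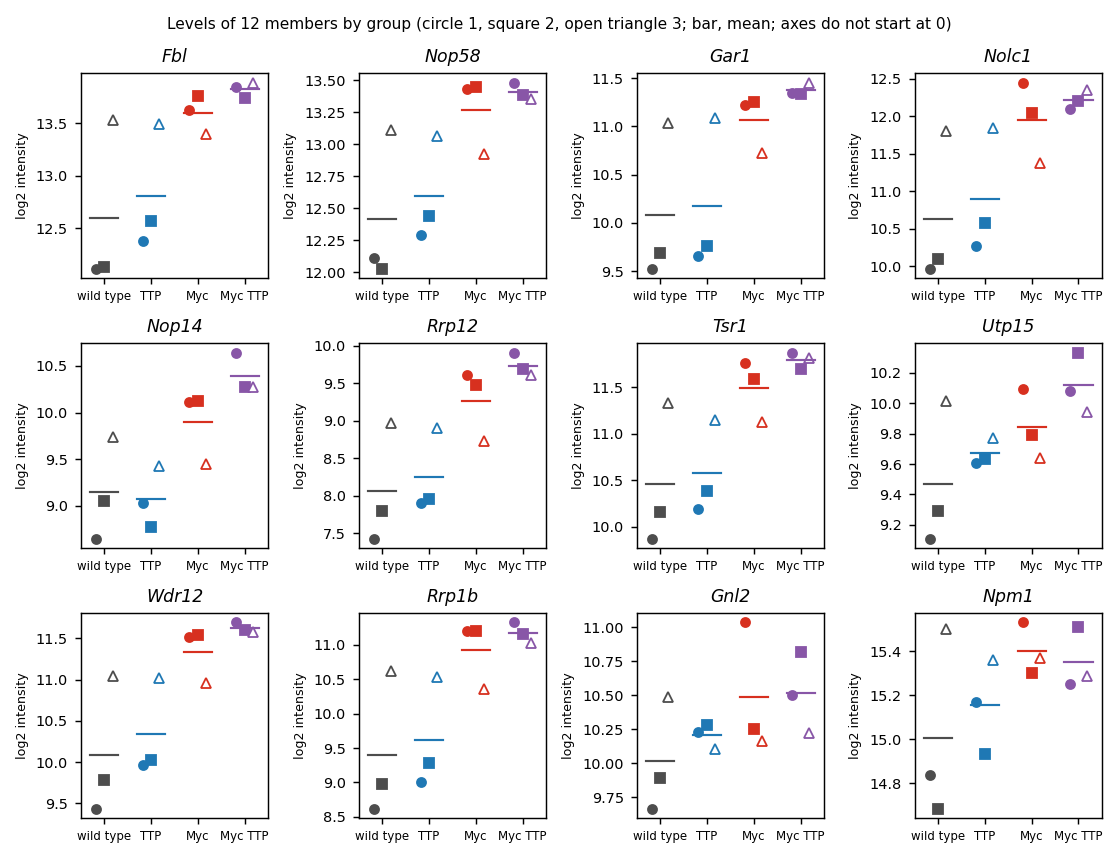
Log2 intensity of 12 members on each array, by group, with circles for replicate 1, squares for replicate 2, open triangles for replicate 3 and bars for group means. In all panels except Gnl2 the Myc-transgenic circles and squares lie above the wild-type and TTP circles and squares, and the open triangle of wild type is the highest of its group in all 12 panels.

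Of 17 small subunit factors 16 rose and 1, Utp15, did not pass, with a median of 0.83. The largest differences of the class were in Rrp9, a protein of the U3 particle, with 1.44 ± 0.38 (adjusted p = 0.0175), and Wdr43, a subunit of the complex that first binds the precursor, with 1.41 ± 0.33 (adjusted p = 0.0169), both singled out after their values were seen. Rrp12, a factor of late maturation and export, read log2 7.42, 7.80 and 8.97 in wild type, 7.90, 7.95 and 8.90 in TTP, 9.60, 9.47 and 8.73 in Myc, and 9.91, 9.69 and 9.60 in Myc TTP. It overlapped between wild type and Myc only through wild type 3 and Myc 3, and rose by 1.34 ± 0.28 (adjusted p = 0.0169). Nop14, a processome protein, read 8.64, 9.05 and 9.73 in wild type, 9.03, 8.77 and 9.42 in TTP, 10.11, 10.13 and 9.45 in Myc, and 10.64, 10.27 and 10.28 in Myc TTP. All Myc TTP arrays were above every other array for this gene, and it rose by 1.04 ± 0.21 (adjusted p = 0.0169).

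Nob1, the nuclease that makes the final cut of the small subunit RNA, rose by 1.16 ± 0.25, Tsr1, a GTPase-like factor of late small subunit assembly, by 1.13 ± 0.25 and the RNA helicase Ddx10 by 0.68 ± 0.15 (adjusted p = 0.0169 for each). On the Myc TTP arrays Tsr1 read 11.88, 11.70 and 11.82 and on the TTP arrays 10.19, 10.39 and 11.15, so these groups did not overlap. Utp18, a subunit of the processome, rose by 0.80 ± 0.23 (adjusted p = 0.0221). Utp15, of the same early complex as Wdr43, read 9.11, 9.29 and 10.01 in wild type, 9.61, 9.63 and 9.77 in TTP, 10.10, 9.79 and 9.64 in Myc, and 10.08, 10.33 and 9.94 in Myc TTP. Its Myc-negative and Myc-transgenic arrays interleaved. The other 8 small subunit factors, Utp20, Heatr1, Noc4l, Bysl, Imp4, Wdr75, Ltv1 and Imp3, rose by 0.54 to 1.25. A second probe set of Utp15 stood at 0.92 ± 0.22 and passed (adjusted p = 0.0202 over all probe sets).

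Of 19 large subunit factors 18 rose and Gnl2 did not pass, with a median of 0.99. Nop16, a nucleolar assembly factor singled out after its values were seen, had the largest difference of all members at 1.57 ± 0.44 (adjusted p = 0.0196), a 2.97-fold difference. Rrp1b read log2 8.62, 8.97 and 10.62 in wild type, 9.01, 9.29 and 10.54 in TTP, 11.20, 11.20 and 10.36 in Myc, and 11.32, 11.15 and 11.03 in Myc TTP, and rose by 1.54 ± 0.36 (adjusted p = 0.0169). Wild type and Myc overlapped through their arrays numbered 3, and Myc TTP lay wholly above TTP. Wdr12, which with Bop1 and Pes1 forms the PeBoW complex of large subunit processing, read 9.44, 9.78 and 11.05 in wild type, 9.97, 10.03 and 11.01 in TTP, 11.51, 11.54 and 10.96 in Myc, and 11.69, 11.60 and 11.57 in Myc TTP. It rose by 1.27 ± 0.27 (adjusted p = 0.0169), and its partners Bop1 and Pes1 by 1.04 ± 0.26 and 0.79 ± 0.19 (adjusted p = 0.0169 for each).

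Rrs1, which helps to load an RNP onto the large subunit precursor, rose by 0.99 ± 0.21, the WD-repeat protein Wdr74 by 1.05 ± 0.24, and Las1l, an endonuclease of the internal spacer, by 0.82 ± 0.18 (adjusted p = 0.0169 for each). Noc3l was the smallest rise that passed in the class, at 0.53 ± 0.18 (adjusted p = 0.0407), and it missed the threshold with the replicate number as a block (0.0654) and without a filter (0.0608). Gnl2, a nucleolar GTPase, read 9.66, 9.89 and 10.49 in wild type, 10.23, 10.28 and 10.10 in TTP, 11.03, 10.25 and 10.16 in Myc, and 10.50, 10.82 and 10.22 in Myc TTP, with all groups overlapping. Of its other probe sets, 1 stood at 0.54 ± 0.16 and passed (adjusted p = 0.0283 over all probe sets) and 1 at 0.48 ± 0.18 and did not (0.0553). Its relative Gnl3 (nucleostemin) rose by 1.19 ± 0.28 (adjusted p = 0.0169). The other large subunit factors, Nop2, Noc2l, Ftsj3, Ebna1bp2, Ddx56, Ddx18, Gtpbp4 and Nip7, rose by 0.68 to 1.16.

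By the probe sets of highest mean, the 4 general nucleolar proteins had the smallest median of the classes, 0.51, and 3 of 4 rose. That rank depends on the probe sets used. Each of these genes had another tested probe set with a larger difference: 1.12 for Ddx21, 1.57 for Mybbp1a, 0.60 for Npm1 and 1.08 for Ncl. Further probe sets of Ncl stood at 0.69 and 0.31. Mybbp1a, a nucleolar regulator of transcription, read log2 12.07, 12.25 and 13.40 in wild type, 12.02, 12.35 and 13.30 in TTP, 13.72, 13.82 and 13.13 in Myc, and 14.03, 13.82 and 13.81 in Myc TTP, and rose by 1.15 ± 0.27 (adjusted p = 0.0169). The helicase Ddx21 rose by 0.66 ± 0.21 (adjusted p = 0.0289) and nucleolin, Ncl, by 0.36 ± 0.13 (adjusted p = 0.0437). The call of Ncl was lost in 12 of 23 alternatives, among them the replicate number as a block (adjusted p = 0.0612), so it is not firm. Nucleophosmin, Npm1, read 14.84, 14.68 and 15.50 in wild type, 15.17, 14.93 and 15.36 in TTP, 15.53, 15.30 and 15.37 in Myc, and 15.25, 15.51 and 15.29 in Myc TTP. Its groups overlapped, and wild type 1 and 2 were the lowest arrays. A second probe set of Npm1 stood at 0.60 ± 0.16 and passed (adjusted p = 0.0213 over all probe sets). Whether the classes differ from each other was not tested.

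**Figure D4:**
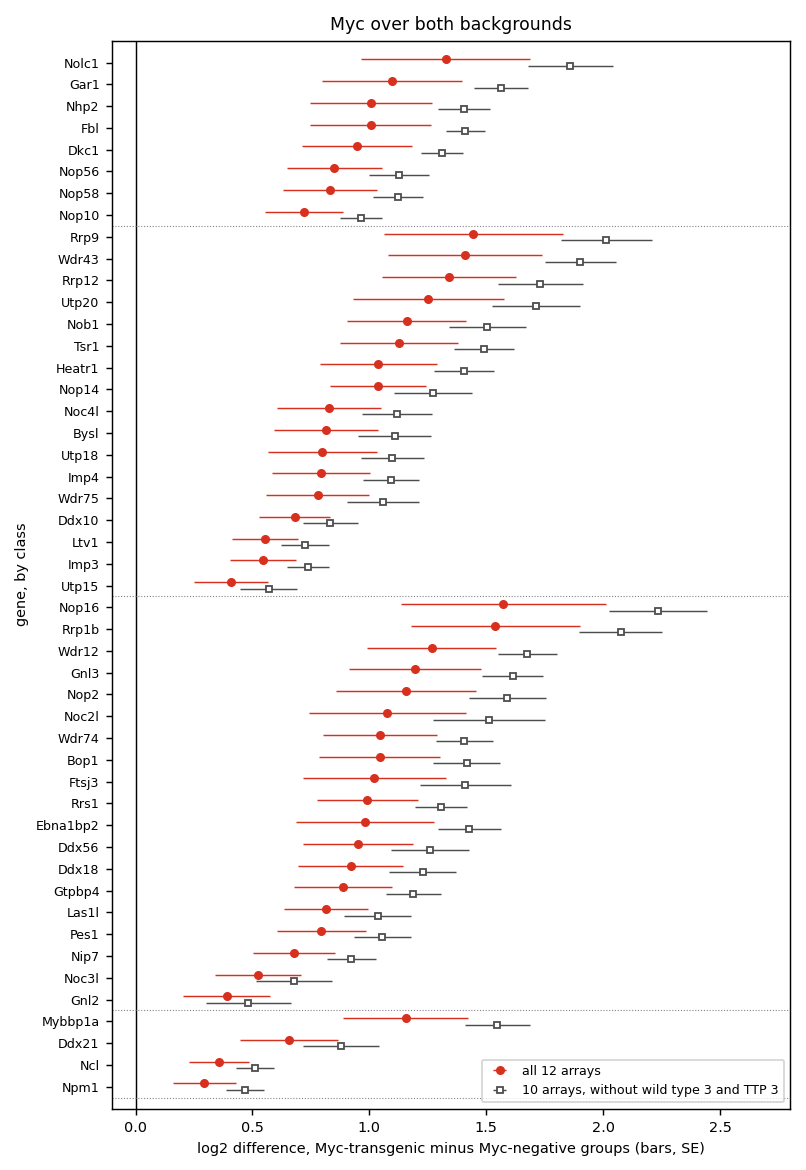
Log2 difference of Myc-transgenic over Myc-negative groups, averaged over both TTP backgrounds, for each of 48 members by class (dotted lines), with SE bars, for all 12 arrays (filled circles) and for 10 arrays without those labelled wild type 3 and TTP 3 (open squares). Every point lies right of 0, from 0.29 to 1.57 with all arrays and from 0.47 to 2.23 with 10 arrays.

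Taken separately, the Myc comparisons gave differences of the same size but no call. In Myc over wild type 0 of 48 members passed in limma, where the background was 11.0% of tested genes called and 0.467% called higher. At an unadjusted p under 0.05, 33 members were higher, against 7.99% of tested genes. The members' median was 0.82 (0.36 to 1.72) against -0.21 for all tested genes, and the smallest adjusted p was 0.0553, of Wdr12. Groups did not overlap, with Myc higher, for 1 member, Nop10, which read 13.34 on both wild type 3 and Myc 3, and for 3.49% of tested genes. After a common median or quantile normalization no tested gene was called in this comparison. In Myc TTP over TTP 0 of 48 passed, where no tested gene was called (0.00%), and at an unadjusted p under 0.05 42 were higher, against 26.1% of tested genes. The median was 1.03 (0.20 to 1.60) against 0.09 for all tested genes, and the smallest adjusted p was 0.0607. Myc TTP lay wholly above TTP for 43 members and 30.6% of tested genes, and wholly below for 0 members and 5.36%. By mean, 3554 of the 10287 tested genes were higher in the first comparison and 5862 in the second. The comparisons share no array, and all 48 members were higher in both, which held for 31.9% of tested genes.

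The counts in these single comparisons rest on the arrays numbered 3. For Myc over wild type, leaving out wild type 3 let 45 members pass, TTP 3 gave 24 and Myc 3 gave 10, while any 1 of the other 9 arrays gave 0. Of all tested genes 11.5%, 4.47% and 3.13% were called higher in those 3 settings, and 34.7%, 35.1% and 20.9% were called in either direction. For Myc TTP over TTP, 41 passed without TTP 3, 40 without wild type 3 and 0 without any 1 of the other 10. The background called higher was 18.5% without TTP 3 and 16.7% without wild type 3. Where the omitted array belongs to neither group compared, the members' differences stay as they were and the pooled variance is what moves. With wild type 3 and TTP 3 both omitted, 48 members passed for Myc over wild type, where the background was 14.0% called higher, and 45 for Myc TTP over TTP, where it was 21.0%. Without all 4 arrays numbered 3 the numbers were 48 and 46, with backgrounds of 18.4% and 23.7%, and the median for Myc over wild type was 1.38. In the average over both backgrounds, by contrast, 34 of the 45 called members were called without each of the 12 arrays in turn, and no called difference moved by more than 1.34 times. The 11 that lost the call without at least 1 array were Ddx21, Ebna1bp2, Ftsj3, Gar1, Ncl, Noc2l, Noc3l, Nolc1, Nop16, Utp18 and Wdr75.

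The TTP transgene gave no call among the members in either background. In TTP over wild type 0 of 48 passed in limma, 0 of 48 had an unadjusted p under 0.05, and no tested gene was called (0.00%). At an unadjusted p under 0.05 were 1.45% of tested genes. The median was 0.10 (-0.14 to 0.31) against -0.06 for all tested genes, and every adjusted p was 1.00. The 4 members with the smallest p were Utp15 (0.20 ± 0.22), Npm1 (0.15 ± 0.19), Ftsj3, a methyltransferase-like factor (0.31 ± 0.43), and Gnl2 (0.19 ± 0.27). No member's groups were free of overlap, where 0.603% of tested genes were higher and 3.65% lower without overlap. By mean 32 of 48 were higher, where 36.4% of tested genes were. With wild type 3 and TTP 3 both omitted the median was 0.18. It was 0.43 without wild type 3 alone, without TTP 3 alone -0.21, without wild type 1 alone -0.16 and without wild type 2 alone -0.07, so the sign of this median was set by single arrays.

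In Myc TTP over Myc 0 of 48 passed, 0 of 48 had an unadjusted p under 0.05 against 19.1% of tested genes, and no tested gene was called (0.00%). The median member was 0.27 higher in Myc TTP, and so was the median of all tested genes, at 0.27. By mean 43 of 48 were higher, where 85.0% of tested genes were. After each array was set to a common median, the members stood at 0.00 and all genes at 0.01, with 24 of 48 members higher. The members of smallest p were Las1l (0.56 ± 0.26, adjusted p = 0.264), Nop14 (0.50 ± 0.29, adjusted p = 0.351), Ddx56, an RNA helicase (0.55 ± 0.33, adjusted p = 0.367), and Imp3, which binds the U3 RNA (0.32 ± 0.20, adjusted p = 0.384). With a common median these were 0.29, 0.24, 0.28 and 0.05. Groups did not overlap, with Myc TTP higher, for 17 of 48 members and for 32.3% of tested genes. Without Myc 3 the median was 0.09.

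**Figure D5:**
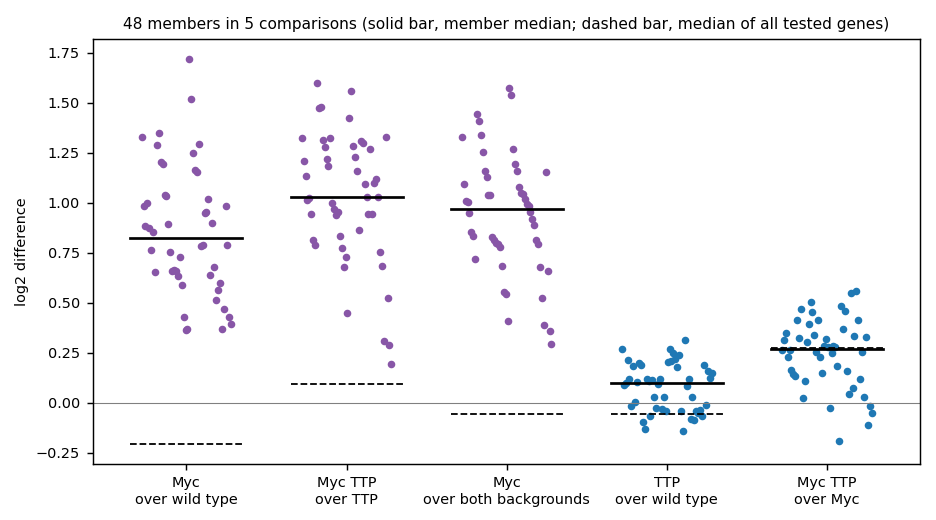
Log2 differences of the 48 members (points) in 5 comparisons, with the member median as a solid bar and the median of all tested genes as a dashed bar. In the 3 Myc comparisons the member medians are 0.82, 1.03 and 0.97 and every point is above 0, while in Myc TTP over Myc both bars lie at 0.27.

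The interaction subtracts the TTP difference without Myc from the one with Myc, and it was called for 0 of 48 members in limma and for no tested gene (0.00%). No member had an unadjusted p under 0.05, while 13.1% of tested genes did, with 12.8% above 0. By mean 39 of 48 members and 84.5% of tested genes were above 0. The median member was 0.17 and the median of all tested genes 0.34. With a common array median the members stood at -0.16 and all genes at 0.01, so the sign of this median depends on the scaling, and it was -0.22 without wild type 3. The median SE of a member's interaction was 0.47, about the size of the smaller Myc differences.

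Other genes of the pathway moved in the same direction. Of 100 further ribosome biogenesis genes 97 were tested, and 77 rose and 1 fell in the Myc comparison over both backgrounds, with a median of 0.66. Of all tested genes 18.7% were called higher and 24.6% lower there, with a median of -0.06. By class, 33 of 43 small subunit, 36 of 45 large subunit and 8 of 9 snoRNP genes rose. The 5 with the smallest p were Bms1, a GTPase of the processome (0.46 ± 0.09), Mak16, a large subunit factor (0.61 ± 0.12), Urb2 (0.59 ± 0.12), Nufip1, which helps assemble box C/D particles (0.74 ± 0.15), and Tbl3, a processome subunit (1.08 ± 0.23), each with adjusted p = 0.0169 by limma. Bms1 read log2 12.08 to 12.51 on the 6 wild-type and TTP arrays and 12.60 to 12.99 on the 6 Myc and Myc TTP arrays, so its groups did not overlap. For the other 4 genes wild type 3 was above Myc 3, as Mak16 shows with 11.09 and 11.06. Of all 97 genes 2 were higher with no overlap between the 6 and 6 arrays, against 0.758% of tested genes. The 1 gene that fell was Riok3, a kinase of late small subunit maturation, by 0.45 (adjusted p = 0.0364), named after its values were seen. Ddx54, Nop53 and Nsa2, also picked out by their values, stood at -0.10, -0.03 and -0.00 and did not pass. Taken separately, Ddx54 stood at -0.35 ± 0.10 in Myc over wild type (adjusted p = 0.0513 by limma) and at 0.14 ± 0.10 in Myc TTP over TTP.

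Most genes were measured by more than 1 probe set, and these went the same way. Of 97 probe sets of the 48 members 91 passed the filter on low values, and all 91 were higher with Myc by their mean, where 47.3% of all tested probe sets were. When every probe set was tested on its own among 18765, 76 of the 91 rose past the threshold, where 15.6% of all 18765 did. Among 32 members with more than 1 tested probe set, 20 had every one of them called. The 4 tested probe sets of Ncl gave 0.31 to 1.08, and when probe sets were tested on their own only the one at 1.08 passed (adjusted p = 0.0212). For Pes1 the second probe set stood at 0.16 and did not pass (adjusted p = 0.367).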

How the data were processed

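RNA of B220-selected bone marrow cells was hybridised to 1 array per sample. The authors deposited GCRMA summaries per probe set, per the submitters' processing notes, as intensity on a linear scale; its version is not given in the sources used here. GCRMA normalizes probe signals between arrays, so overall RNA content is not measured. The median of tested genes still ran from log2 8.93 to 9.38 over arrays, and setting it equal moved the median of all genes from -0.21 to 0.05 in Myc over wild type and from 0.27 to 0.01 in Myc TTP over Myc. The number of arrays limits the precision. Log2 was taken without pseudocount. Of 45101 probe sets 34958 had 1 gene symbol, 932 several and 9211 none, per the platform annotation, and symbols were updated through a RefSeq table (GRCm38.p6). Each gene was represented by its probe set of highest mean and tested when above log2 4 on at least 3 of 12 arrays.

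Differences were tested two-sided with limma 3.58.1 in R 4.3.3 (lmFit, eBayes with trend) as 4 group means over 12 arrays (8 residual degrees of freedom), tested first on simulated data. Adjusted p-values are Benjamini-Hochberg over 10287 genes. Same-numbered wild-type and TTP arrays had correlated residuals (0.50, 0.66 and 0.82), which the labels do not explain; with Myc arrays the correlation was negative. In TTP over wild type no tested gene was called with or without the replicate number as a block. That comparison therefore cannot show whether a pairing matters. Members and lists were chosen with earlier results of these data known. Named members are, per class, up to 5 of smallest and 2 of largest p in the average Myc comparison, and 4 of smallest p in each TTP comparison; the others are named to account for every member. No column of the table lacked a sample.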

Additional observations from a re-analysis of the deposited data

How the results depend on the processing

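The alternatives were no filter, a floor of log2 6, quantile normalization, a common median, no intensity trend, the probe set of largest SD, the mean of all probe sets, array weights (which stopped before converging), the replicate number as a block, and leaving out arrays. The average Myc comparison called 43 to 48 of the members under all of these that kept 12 arrays, and 34 to 48 without 1 array, with a median of 0.85 to 1.16. Array weights called more genes of all kinds: 61.6% of tested genes in Myc over wild type, 66.9% in Myc TTP over TTP and 73.6% in the average. For Myc over wild type, counts of members moved from 0 to 48 with array weights, 1 with a floor of 6, 48 without wild type 3 and TTP 3, 48 without the 4 arrays numbered 3, with a median of 1.38 there, and 0 to 45 without 1 array (median 0.63 to 1.19). For Myc TTP over TTP they moved from 0 to 48 with array weights, 45 without wild type 3 and TTP 3, 46 without the arrays numbered 3, and 0 to 41 without 1 array (median 0.87 to 1.33). For Myc TTP over Myc array weights called 1 member, Utp15, and 30.2% of tested genes, and leaving out 1 array gave medians of 0.09 to 0.39. Leaving out 1 array gave -0.21 to 0.43 for TTP over wild type and -0.22 to 0.45 for the interaction, with 0 calls. In TTP over wild type Npm1 turned to -0.014 without wild type 2 and Utp15 to -0.00893 with the probe set of largest SD. The causes were not tested. With the replicate number as a block, 43 members were called in the average Myc comparison, Ncl and Noc3l losing their calls, and 0 in the others. The labels do not say that the numbers pair samples, and of the 6 pairs of groups only wild type and TTP had a correlation over 0.1 at every number.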
